A study of Rattus norvegicus with 24 samples.

Results

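The genes described here are those of the receptors through which blood phagocytes bind beta-glucan and of the Syk-Card9 relay behind them: Clec7a, Itgam, Itgb2, Syk, Plcg2, Card9, Bcl10 and Malt1. They were chosen by name, as every probe whose gene symbol on the array equals one of these 8 symbols, which gave 11 of the 30367 probes that are not controls, and 8 of the 25885 names these carry. The blood RNA of single male Sprague-Dawley rats went onto 24 Agilent SurePrint G3 arrays in 2 colors, 4 for each of 6 groups. All rats were 8 weeks old at the start and ate their diet for 6 weeks. Rats without LPS had the control diet (C-G0) or a diet enriched in oat beta-glucan of high (G1, group C-G1) or low molecular weight (G2, group C-G2). The other 3 groups, LPS-G0, LPS-G1 and LPS-G2, had the same diets and repeated injections of LPS (10 mg/kg), the bacterial lipopolysaccharide, where the rats without LPS were given saline into the tail vein. The question put to these genes is whether their transcripts in blood differ between the diets, with and without LPS, and between the 2 molecular weights.

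Dectin-1, the product of Clec7a, is a C-type lectin on myeloid cells that binds the beta-glucan of fungal and plant cell walls. Its cytoplasmic tail recruits the tyrosine kinase Syk, which activates phospholipase C gamma 2 (Plcg2), and the signal runs over protein kinase C delta to the adaptor Card9. Card9 assembles with Bcl10 and the paracaspase Malt1 and so activates NF-kB. Complement receptor 3, the integrin of the alpha M chain Itgam (CD11b) and the beta 2 chain Itgb2 (CD18), is another receptor of soluble beta-glucan on neutrophils and monocytes, and Itgb2 also pairs with other alpha chains on lymphocytes. Syk and Plcg2 serve B cell receptor signalling as well, so the RNA of whole blood adds up several cell types. In such RNA, fewer cells of a type and less RNA per cell cannot be told apart.

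The probes of these genes are not equivalent, and the sequences of 6 of them are shown because their place in the transcript bears on what they measured. All are 60 bases long, are given 5′ to 3′ as the array files print them, and lie on the rn4 assembly. The Clec7a probe lies at chr4:166725168-166725227 on the minus strand and the Plcg2 probe at chr19:47896153-47896212 on the minus strand. Both Itgam probes lie at the end of the gene on the plus strand, the brighter at chr1:187385524-187385583 and the dimmer split over chr1:187385032-187385565. They share the 34 bases in capitals and differ after them, and the brighter one ends in the stop codon of its reading frame. The Syk probe A_64_P017328 lies at chr17:18467282-18467341 on the minus strand. A_64_P017329, at chr17:18443785-18443844, ends in the stop codon that is in capitals.
Clec7a A_64_P141160: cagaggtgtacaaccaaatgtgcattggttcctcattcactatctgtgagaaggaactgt
Plcg2 A_44_P531647: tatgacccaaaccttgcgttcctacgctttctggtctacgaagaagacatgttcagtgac
Itgam A_64_P023848: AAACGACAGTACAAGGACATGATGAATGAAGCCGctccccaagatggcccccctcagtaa
Itgam A_43_P15993: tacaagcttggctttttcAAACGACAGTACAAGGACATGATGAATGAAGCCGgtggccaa
Syk A_64_P017328: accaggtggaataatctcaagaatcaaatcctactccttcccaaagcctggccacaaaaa
Syk A_64_P017329: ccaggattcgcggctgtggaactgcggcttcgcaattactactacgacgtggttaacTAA

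The brightest Syk probe, A_44_P293904, lies 2671 bases beyond the one at the stop codon, at chr17:18441114-18441173. Each gene was read from its probe with the highest mean Cy3 signal, and the other probes of Itgam and Syk are given beside it. Values are log2 ratios of Cy3 over Cy5. By the sample labels Cy3 carried the RNA of the rat and Cy5 a reference pool drawn from all groups, whereas the methods of the study name the dyes the other way round. With the dyes of the methods every sign below would turn. The study reports Ube2c lower in LPS-G1 than in LPS-G0, and Gzma and Gzmb higher in LPS-G0 than in C-G0. With the dyes of the labels, all 6 tested genes of cell division, Ube2c among them, were lower in the first comparison. All 7 tested cytotoxic genes, Gzma and Gzmb among them, were higher in the second. For these genes the signs used here thus match the reported directions. Over 7074 probes that both channels detected throughout, the SD between arrays of a group was larger in Cy3 for 95.3%, with a median of 0.38 against 0.26 in Cy5 on the log2 scale. The lowest correlation of ratios between 2 arrays was -0.16 over all probes and -0.60 over the probes well above background on all 24 arrays.

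In Cy3, the arrays had 7786 to 15385 probes well above background. Of the 8 brightest probes, 5 (Itgam, Itgb2, Syk, Card9 and Bcl10) were above background on all 24 arrays, those of Clec7a and Plcg2 on 23, and that of Malt1 on 17. All 8 entered the tests. The second Itgam probe was above background on 8 arrays and the Syk probe at the stop codon on 12, and neither was tested. All 6 groups were present on each of the 3 slides, but not evenly. Both G0 groups had 2 arrays on slide 1, both G1 groups 2 on slide 2 and both G2 groups 2 on slide 3. Each group had 1 array on each of its other slides, so diet and slide are partly confounded. Deviations from the group means had a mean correlation of 0.11 between groups on the same slide and -0.05 on other slides. For LPS-G0 replicates 3 and 4 the title names LPS but the field on inflammation reads control, and they were kept by title. The labels call the arrays biological replicates, and 4 arrays per group limit the precision of each value.

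**Figure D1:**
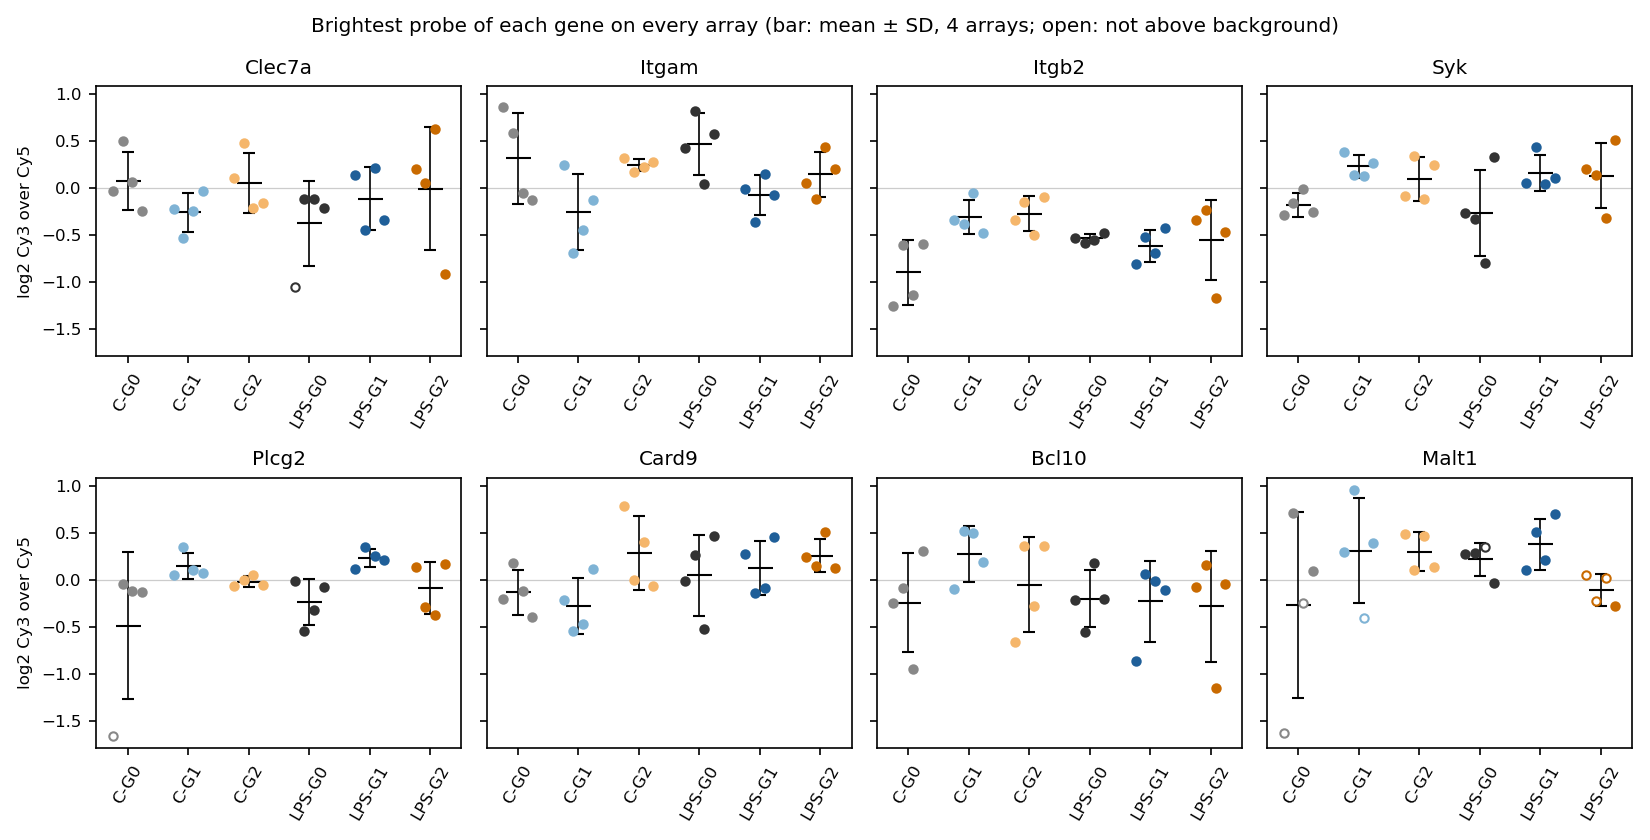
Log2 Cy3 over Cy5 of the brightest probe of each of the 8 genes on every array, by group, with the mean and SD of 4 arrays as bars and open points for arrays not well above background. The Plcg2 points of C-G1 and LPS-G1 all lie above those of their control-diet groups, the Itgb2 points of C-G1 and C-G2 lie above C-G0, and C-G0 replicate 1 lies far below the other arrays for Plcg2 at -1.66.

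No gene of the 8 passed an adjusted p under 0.05 (limma, Benjamini-Hochberg over all probes tested) in any of the 9 comparisons between 2 groups, and every change was under 2-fold. The adjusted p under 0.05 was reached by 8.93% of all probes in LPS-G1 vs. LPS-G0. That share was 0.028% with all 24 arrays in the model, 18.8% without C-G0 replicate 1, and 0% with Cy3 alone, without LPS-G0 replicates 3 and 4, or without LPS-G0 replicate 1 or 4 or LPS-G1 replicate 4 alone. It was reached by 0.028% in C-G1 vs. C-G0 and in C-G2 vs. C-G0, by 0.0097% for LPS on the control diet, by 0.00934% for LPS on the G1 diet, and by 0% for LPS on the G2 diet, in LPS-G2 vs. LPS-G0 and in both comparisons of G1 with G2. At an unadjusted p under 0.05, 4 of the 8 genes differed in C-G1 vs. C-G0 (27.9% of all probes), 2 in C-G1 vs. C-G2 (15.4%), 1 in C-G2 vs. C-G0 (13.3%) and 1, Itgam, in LPS-G1 vs. LPS-G0 (26.9%). The count was 0 in LPS-G2 vs. LPS-G0 (8.23%), in LPS-G1 vs. LPS-G2 (6.68%) and for LPS on the control diet (15.2%), the G1 diet (2.81%) and the G2 diet (1.09%). Below, each change is given with its standard error or unadjusted 95% confidence interval and the adjusted p.

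Among the receptors, Clec7a, the gene of dectin-1, showed no difference between diets beyond the spread of the arrays. Its log2 ratio was -0.03, 0.50, 0.07 and -0.24 on the 4 C-G0 arrays, -0.22, -0.53, -0.24 and -0.03 on the C-G1 arrays, and 0.11, 0.49, -0.21 and -0.15 on the C-G2 arrays. With LPS it was -1.05, -0.12, -0.11 and -0.20 on the control diet, 0.14, -0.45, 0.21 and -0.34 on G1, and 0.21, 0.05, 0.63 and -0.91 on G2. All 3 diets overlapped with and without LPS, and the lowest LPS-G0 array was not above background. The G1 change was -0.33 (95% confidence interval -0.89 to 0.23) without LPS and 0.26 (-0.36 to 0.88) with LPS. The G2 change was -0.02 (-0.58 to 0.55) and 0.37 (-0.25 to 0.99). Without LPS-G0 replicate 1 the LPS-G1 change was 0.04.

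Itgam, the alpha M chain, had lower values on the G1 diet. The C-G0 arrays had 0.86, 0.59, -0.05 and -0.12, against 0.25, -0.68, -0.45 and -0.13 in C-G1. The LPS-G0 arrays had 0.43, 0.82, 0.05 and 0.58, against 0.00, -0.35, 0.15 and -0.07 in LPS-G1. In both pairs the highest G1 array lay within the range of the control-diet arrays, so the groups overlapped. The log2 change was -0.57 (standard error 0.22, adjusted p = 0.137) in C-G1 vs. C-G0 and -0.54 (standard error 0.22, adjusted p = 0.137) in LPS-G1 vs. LPS-G0. With array weights the change without LPS was -0.28. Within the 3 slides the difference was -0.48, -0.51 and -0.01 without LPS and -0.63, -0.15 and -0.65 with LPS. On the G2 diet the arrays had 0.32, 0.17, 0.22 and 0.28 without LPS and 0.06, -0.11, 0.44 and 0.20 with LPS, changes of -0.07 (0.11 without C-G0 replicate 1) and -0.32 against the control diet. The G2 arrays overlapped with the control-diet arrays in both cases.

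The second Itgam probe does not allow a check of this pattern. It was above background on 2, 1 and 2 of 4 arrays in C-G0, C-G1 and C-G2 and on 1 of 4 in each LPS group. Its log2 ratio ran from -1.95 to 1.37 over the 24 arrays.

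Itgb2, the beta 2 chain, had higher values on both beta-glucan diets without LPS, and with LPS the diets overlapped. Its arrays had -1.25, -0.60, -1.13 and -0.59 in C-G0, -0.33, -0.37, -0.05 and -0.47 in C-G1, and -0.33, -0.14, -0.50 and -0.09 in C-G2. All arrays of C-G1 and of C-G2 exceeded the whole of C-G0 (two-sided exact permutation p = 0.0286, and 4 arrays against 4 can give none smaller). The log2 change was 0.58 (standard error 0.19, adjusted p = 0.114) for G1 and 0.63 (standard error 0.19, adjusted p = 0.212) for G2. These comparisons share the C-G0 arrays. On slides 1, 2 and 3 the difference was 0.59, 0.92 and 0.12 for G1 and 0.59, 0.98 and 0.30 for G2, smallest on slide 3 in both. Without C-G0 replicate 4 the adjusted p was 0.0393 and 0.0460, with changes of 0.69 and 0.73, and 8.99% and 3.3% of all probes passed. Without C-G0 replicate 1 the changes were 0.46 and 0.51 (adjusted p = 0.470 and 0.322), and each passed in 1 of 38 alternatives.

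With LPS the Itgb2 arrays had -0.53, -0.58, -0.54 and -0.48 on the control diet, -0.80, -0.52, -0.69 and -0.42 on G1, and -0.34, -0.23, -1.17 and -0.46 on G2. The 4 LPS-G0 arrays lay close together and within the range of both beta-glucan groups. The G1 change with LPS was -0.08 (-0.50 to 0.35) and the G2 change -0.02 (-0.44 to 0.41). The LPS-G0 arrays all lay above the C-G0 arrays, with a change of 0.36 (adjusted p = 0.407), or 0.24 without C-G0 replicate 1. The difference between the G1 change with and without LPS was -0.66 (standard error 0.27, adjusted p = 0.999), and that of the G2 changes was -0.64 (standard error 0.27, adjusted p = 0.832). No gene of the 8 passed the adjusted test of such a difference, nor did any of the other probes (0%). At an unadjusted p under 0.05, Itgb2 alone of the 8 passed in either case, with 3.01% of all probes for G1 and 5.57% for G2.

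The Itgb2 and Itgam chains form 1 receptor, but their probes did not move together. Over the 24 arrays their ratios had a correlation of -0.37, or -0.21 without C-G0 replicate 1. Without LPS the G1 mean was lower for Itgam and higher for Itgb2, neither at an adjusted p under 0.05.

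Among the signalling genes, Syk, the kinase that docks on the receptor, had higher values on the G1 diet by its brightest probe. The values were -0.29, -0.16, 0.00 and -0.25 in C-G0 and 0.39, 0.14, 0.14 and 0.27 in C-G1. Every C-G1 array lay above every C-G0 array. The log2 change was 0.41 (standard error 0.20, adjusted p = 0.177). With LPS the values were -0.26, -0.32, -0.79 and 0.33 on the control diet, 0.06, 0.44, 0.05 and 0.11 on G1, and 0.20, 0.14, -0.31 and 0.52 on G2. Here the groups overlapped, since the highest LPS-G0 array lay above 3 of the 4 LPS-G1 arrays. The change was 0.42 (standard error 0.21, adjusted p = 0.209) in LPS-G1 and 0.40 (standard error 0.21, adjusted p = 0.597) in LPS-G2. Without LPS-G0 replicate 3 these changes were 0.25 and 0.22. Within the 3 slides the G1 difference was 0.61, 0.14 and 0.52 without LPS and 0.35, 1.03 and -0.22 with LPS, so its sign differed between slides with LPS. The C-G2 arrays had -0.09, 0.35, -0.12 and 0.25, a change of 0.27 (-0.14 to 0.68) against C-G0.

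The Syk probe A_64_P017328, 23497 bases upstream of the one at the stop codon in the genome, was above background on all 24 arrays and gave other values. Its ratios were 0.40 ± 0.50 in C-G0, 0.32 ± 0.11 in C-G1 and 0.26 ± 0.17 in C-G2 (SD, n = 4). With LPS they were 0.48 ± 0.50 on the control diet, 0.37 ± 0.26 on G1 and 0.44 ± 0.54 on G2 (SD, n = 4). None of the diet groups stood apart. The G1 change by this probe was -0.08 (95% confidence interval -0.63 to 0.46) without LPS and -0.11 (-0.74 to 0.52) with LPS. The G2 change was -0.14 (-0.69 to 0.40) and -0.04 (-0.67 to 0.59). The mean of both tested probes gave a G1 change of 0.16 without LPS and 0.16 with LPS. The probe at the stop codon was above background on 12 arrays, among them 1 of the 4 LPS-G0 arrays. The higher Syk value on the G1 diet was thus measured by the probe beyond the stop codon and not by the one upstream.

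**Figure D2:**
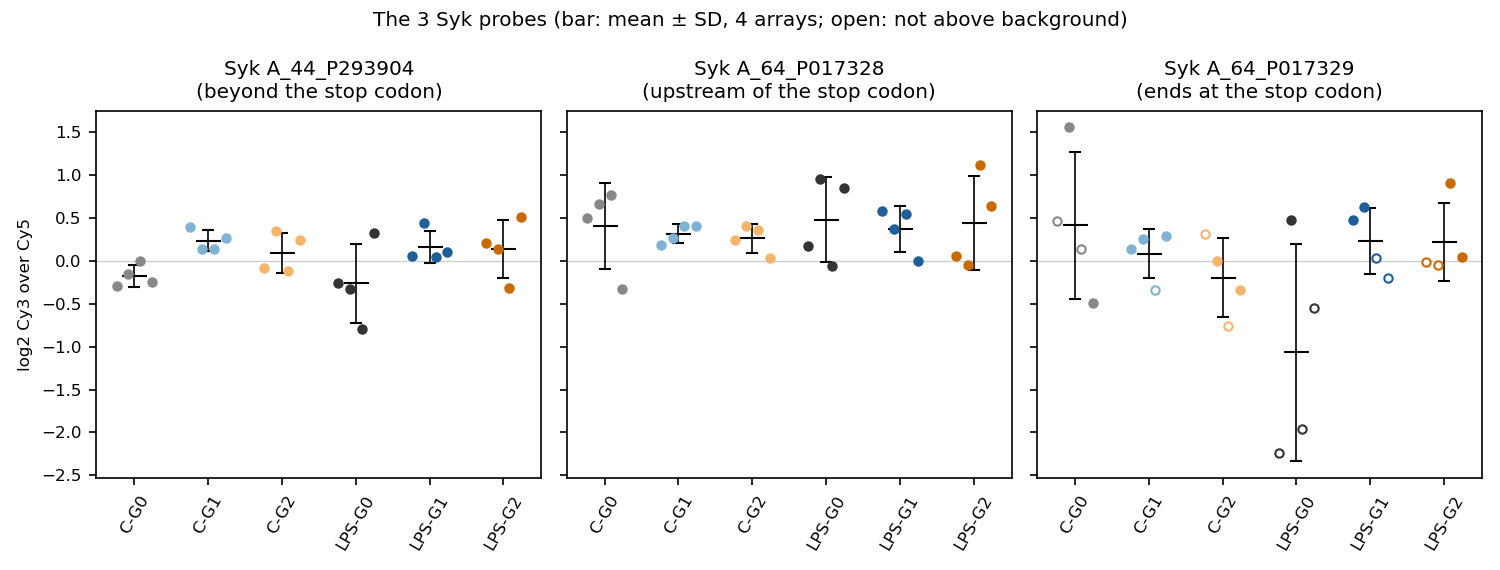
Log2 Cy3 over Cy5 of the 3 Syk probes on every array, by group, with the mean and SD of 4 arrays as bars and open points for arrays not well above background. C-G1 lies above C-G0 for the probe beyond the stop codon (mean 0.24 against -0.17) and not for the probe upstream of it (0.32 against 0.40).

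Plcg2, the phospholipase downstream of Syk, had higher values on the G1 diet with and without LPS. The C-G0 arrays had -1.66, -0.04, -0.12 and -0.13 and the C-G1 arrays 0.05, 0.35, 0.11 and 0.08. The LPS-G0 arrays had -0.01, -0.54, -0.32 and -0.07 and the LPS-G1 arrays 0.12, 0.35, 0.26 and 0.21. In both pairs every G1 array lay above every control-diet array (two-sided exact permutation p = 0.0286). In C-G1 vs. C-G0 the log2 change was 0.63 (standard error 0.25, adjusted p = 0.138), and in LPS-G1 vs. LPS-G0 it was 0.47 (standard error 0.28, adjusted p = 0.285). Within the 3 slides the difference was 0.90, 0.35 and 0.20 without LPS and 0.39, 0.63 and 0.28 with LPS.

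The size of the Plcg2 change without LPS turned on 1 array. C-G0 replicate 1 was not above background for Plcg2, and without it the change in C-G1 vs. C-G0 was 0.24 (adjusted p = 0.525). With normexp and loess, another background correction and scaling, it was 0.24 as well. The same array belongs to neither group of LPS-G1 vs. LPS-G0 and enters that model only through the estimate of the spread. Without it the LPS-G1 change was still 0.47 and its adjusted p was 0.0398, where 18.8% of all probes passed. On the G2 diet the arrays had -0.07, 0.00, 0.05 and -0.05 without LPS and 0.14, -0.28, -0.37 and 0.17 with LPS. The C-G2 arrays overlapped with C-G0, and the LPS-G2 arrays with LPS-G0. The G2 change was 0.47 (-0.04 to 0.98) without LPS, 0.08 without C-G0 replicate 1, and 0.15 (-0.44 to 0.74) with LPS.

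The arrays of 2 groups were fully separated for 3 of the 8 genes in C-G1 vs. C-G0 (Itgb2, Syk and Plcg2), where 7.04% of all probes were. In LPS-G1 vs. LPS-G0 they were separated for 1 gene, Plcg2 (21.9% of all probes), and in C-G2 vs. C-G0 for 1 gene, Itgb2 (2.62%). In LPS-G2 vs. LPS-G0 they were separated for 0 genes (10.5%).

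Card9, the adaptor that links the kinase to NF-kB, Bcl10 and Malt1 showed no diet change that held beyond the spread of the arrays. Card9 ratios ran from -0.55 to 0.79, Bcl10 ratios from -1.15 to 0.52 and Malt1 ratios from -1.63 to 0.96 over the 24 arrays. The Card9 change was -0.15 (95% confidence interval -0.60 to 0.31) in C-G1, 0.42 (-0.04 to 0.87) in C-G2, 0.08 (-0.36 to 0.51) in LPS-G1 and 0.21 (-0.23 to 0.64) in LPS-G2 against the control diet. For Bcl10 the changes were 0.52 (-0.11 to 1.14), 0.19 (-0.44 to 0.81), -0.03 (-0.67 to 0.61) and -0.08 (-0.72 to 0.56) in the same order. For Malt1 they were 0.58 (-0.10 to 1.26), 0.57 (-0.11 to 1.24), 0.16 (-0.54 to 0.87) and -0.32 (-1.03 to 0.38). All 12 of these intervals hold 0. The Malt1 changes without LPS rested on C-G0 replicate 1, at -1.63 and not above background, without which they were 0.13 and 0.11.

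**Figure D3:**
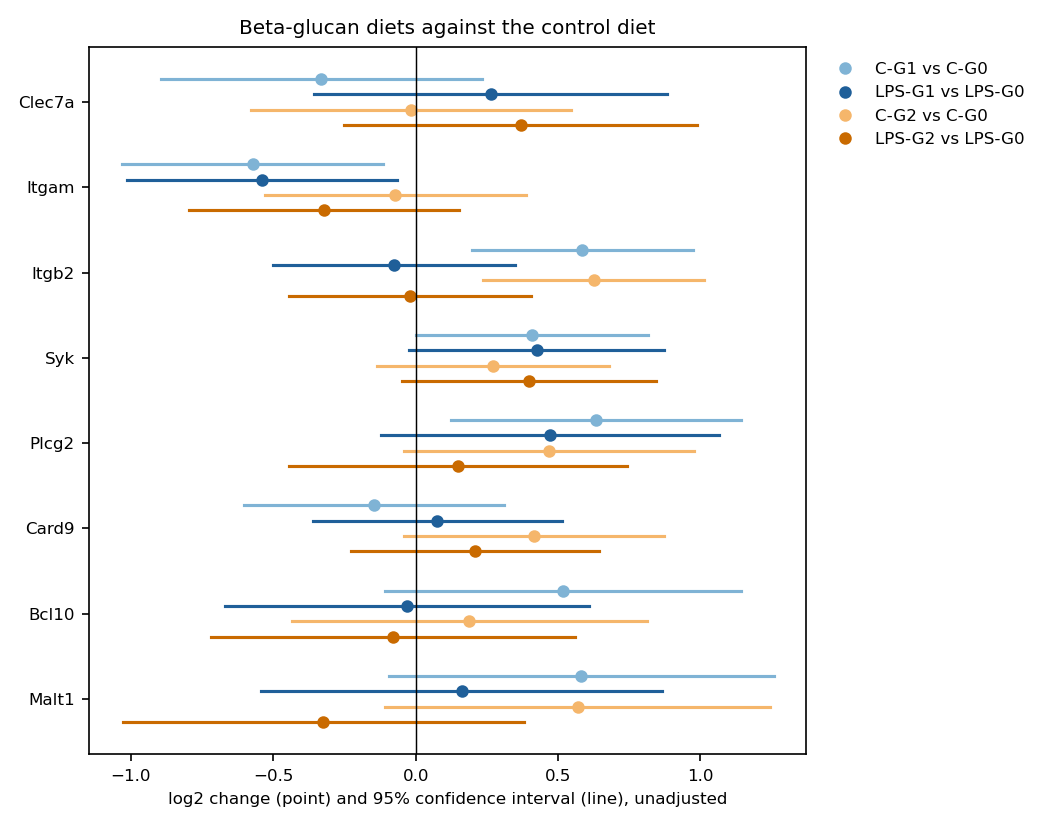
Log2 change of the 8 genes (points) with the unadjusted 95% confidence interval (lines) in the 4 comparisons of a beta-glucan diet with the control diet, without LPS (light) and with LPS (dark). The intervals of Itgam on G1 lie below 0 in both cases, and those of Itgb2 lie above 0 only in rats without LPS.

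The 2 molecular weights were compared directly in 2 pairs of groups, LPS-G1 vs. LPS-G2 and C-G1 vs. C-G2, with p adjusted over all probes tested in each. No gene of the 8 passed in either pair. Without LPS, Card9 was at -0.21, -0.55, -0.47 and 0.12 in C-G1 and at 0.79, 0.00, 0.40 and -0.06 in C-G2, and the groups overlapped. The difference was -0.56 (standard error 0.22, adjusted p = 0.323), or -0.29 with normexp and loess. That of Itgam was -0.50 (standard error 0.22, adjusted p = 0.323), with the highest C-G1 array within the range of C-G2. The difference of Plcg2 was 0.17 (-0.34 to 0.67), and it was the 1 gene of the 8 whose arrays were fully separated in this pair (3.22% of all probes), though by little, since the lowest C-G1 array and the highest C-G2 array both had 0.05.

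With LPS, the arrays of Malt1, the paracaspase, were 0.11, 0.51, 0.21 and 0.70 in LPS-G1 and 0.05, -0.22, 0.03 and -0.28 in LPS-G2. All LPS-G1 arrays lay above all LPS-G2 arrays, which 6.65% of all probes showed too. The difference was 0.49 (-0.22 to 1.19, adjusted p = 0.697), or 0.01 with normexp and loess. Malt1 was detected in 4 of 4 LPS-G1 rats but in 1 of 4 LPS-G2 rats, so the LPS-G2 value is largely dim signal. In C-G0 it was detected in 2 of 4 rats and in LPS-G0 in 3 of 4. Among the groups of this model, LPS-G1 alone therefore let the probe pass the filter on dim probes. The separation of LPS-G1 from LPS-G2 is thus not independent of that filter, and no difference is concluded from it. For the other 7 genes the difference between LPS-G1 and LPS-G2 lay between -0.22 and 0.32. The intervals reached from -0.73 to 1.19 over the 8 genes.

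LPS itself did not change these genes by the adjusted test on any of the 3 diets. On the control diet the changes lay between -0.45 (Clec7a) and 0.49 (Malt1). Each rested on 1 array, with -0.22 for Clec7a without LPS-G0 replicate 1 and 0.03 for Malt1 without C-G0 replicate 1. Itgb2 was the 1 gene of the 8 whose arrays were fully separated in LPS-G0 vs. C-G0 (5.03% of all probes). On the G1 diet the changes lay between -0.50 (Bcl10) and 0.40 (Card9), with 0 genes separated (2.73%). On the G2 diet they lay between -0.41 (Malt1) and 0.04 (Syk), and Malt1 was separated, lower with LPS (1.07%). Its probe was above background on 4 of 4 C-G2 arrays but on 1 of 4 LPS-G2 arrays.

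The G1 change of Itgam, Plcg2, Malt1 and, by its brightest probe, Syk had the same sign with and without LPS. The upstream Syk probe had small negative changes in both cases. The diet was also averaged over the rats with and without LPS. This average was chosen after the values above were seen and rests on the same arrays, so it adds precision and no independent evidence. Averaged over LPS status in the 24-array model, the G1 diet changed Itgam by -0.56 (standard error 0.16, adjusted p = 0.0187), Plcg2 by 0.55 (standard error 0.17, adjusted p = 0.0278) and Syk by 0.42 (standard error 0.14, adjusted p = 0.0339). These 3 of the 8 genes stood against 27.9% of all probes at an adjusted p under 0.05 in the same average. Of all probes, 18.2% were lower and 9.7% higher.

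The other genes had adjusted p of 0.138 (Itgb2) to 0.902 (Clec7a) in this average. With the slide as a block Itgam kept the call (-0.44, adjusted p = 0.0359), Plcg2 (adjusted p = 0.0577) and Syk (adjusted p = 0.0574) lost it, and 15.2% of all probes passed. Itgam kept an adjusted p under 0.05 without any 1 array, the highest being 0.0489 without C-G0 replicate 1. Without that array Plcg2 changed by 0.36 (adjusted p = 0.0406), and by 0.28 with normexp and loess (adjusted p = 0.0194). Plcg2 lost it without LPS-G0 replicate 2 (0.0542), C-G1 replicate 2 (0.0610) or LPS-G1 replicate 2 (0.0535). Syk lost it without any 1 of 8 arrays (0.0506 to 0.0732) and in the mean of its probes (0.342). The averaged G2 diet changed 0 of the 8 genes, with 0.00934% of all probes at an adjusted p under 0.05. Its smallest adjusted p were those of Syk (0.33, adjusted p = 0.330) and Itgb2 (0.30, adjusted p = 0.352). The averaged difference of G1 minus G2 was -0.36 for Itgam (adjusted p = 0.190) and -0.35 for Card9 (adjusted p = 0.196), and 0 of the 8 genes and 0% of all probes passed.

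Markers of other blood cells moved with the G1 diet beside these genes, and those of cell division also with the G2 diet. The mean log2 ratio of 7 tested genes of red cell precursors ran from -1.44 to -0.26 in C-G1 and from -0.17 to 0.30 in C-G0, and from -0.68 to 0.03 in LPS-G1 and from 0.16 to 0.22 in LPS-G0. The mean of 6 tested genes of cell division ran from -1.57 to -0.12 in C-G1 and from 0.08 to 0.80 in C-G0, and from -1.20 to -0.06 in LPS-G1 and from 0.32 to 0.80 in LPS-G0. On G2 it ran from -0.36 to 0.16 in LPS-G2, below LPS-G0, and from -0.58 to 0.30 in C-G2, overlapping with C-G0. All 6 genes were lower on G2 with LPS (median change -0.43) and without (-0.47). The red cell mean on G2 overlapped with the control diet, at -0.06 to 0.19 in LPS-G2 and -0.55 to 0.07 in C-G2. Over the 24 arrays Itgam had a correlation of 0.76 with the cell division mean and 0.66 with the red cell mean, and 0.57 and 0.44 after the group means were taken out. Plcg2 had -0.61 and -0.48 with them, and -0.43 and -0.30 after the group means were taken out. Their part in the results was not tested.

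The markers of the cells that carry the receptors were measured as well. Of 11 neutrophil genes 5 could be tested, and their mean ran from -0.73 to 0.66 in C-G1 and from -0.45 to -0.01 in LPS-G1, overlapping with C-G0 (-0.13 to 0.28) and LPS-G0 (-0.65 to -0.14). In LPS-G2 the neutrophil mean ran from -0.20 to 0.74. Ltf, the lactoferrin gene of neutrophil granules, was above background on 0 of 24 arrays. The mean of 6 tested monocyte genes ran from -0.09 to 0.06 in LPS-G1 and from -0.35 to -0.08 in LPS-G0. Over the 24 arrays the correlation with the neutrophil mean was 0.64 for Clec7a, 0.14 for Itgam and -0.12 for Itgb2. With the monocyte mean it was 0.61 for Plcg2, 0.46 for Itgb2 and -0.42 for Itgam, and without C-G0 replicate 1 these were 0.11, 0.19 and -0.22. That of Clec7a with the monocyte mean was 0.42, and 0.61 without that array. Plcg2 had 0.51 with the B cell mean and 0.53 with the T cell mean, or 0.34 with each without that array. Their part in the results was not tested.

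The wider pathway was followed in 83 further genes, of which 78 are on the array and 44 were tested in the 16 arrays with C-G0 and the LPS groups (45 in all 24). In LPS-G1 vs. LPS-G0, 1 of the 44 passed the adjusted test, as did 8.93% of all probes. This was Vav3, a guanine nucleotide exchange factor that Syk phosphorylates. Its arrays had 0.00, 0.01, 0.43 and 0.51 in LPS-G0 and -0.66, -1.03, -0.84 and -1.01 in LPS-G1. All LPS-G1 arrays lay below all LPS-G0 arrays, and the log2 change was -1.12 (standard error 0.19, adjusted p = 0.0289). These values are from the brighter of 2 tested Vav3 probes. The other was above background on 18 of 24 arrays, and its values are not given here. No pathway gene passed when the tested probes of each gene were averaged. None passed without LPS-G0 replicate 1 or 4 or without LPS-G1 replicate 2, 3 or 4.

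Without LPS, Vav3 did not follow the G1 diet. The arrays had -0.32, -0.83, -0.44 and -0.29 in C-G0 and -0.60, -0.81, -0.50 and -0.37 in C-G1. In LPS-G2 they had -0.16, -0.54, -0.15 and 0.28. The LPS-G0 arrays thus stood above those of C-G0, C-G1 and LPS-G1, while the highest LPS-G2 array overlapped with them. The LPS-G0 vs. C-G0 change was 0.71 (adjusted p = 0.218), and the difference between the G1 changes with and without LPS was -1.02 (standard error 0.25, adjusted p = 0.999).

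Most other pathway genes had positive changes on both beta-glucan diets with LPS, 32 of 44 in LPS-G1 (55.4% of all probes) and 34 of 44 in LPS-G2 (47.4%), and none of them passed the adjusted test. The median log2 change of the 44 was 0.25 in LPS-G1 and 0.22 in LPS-G2 against LPS-G0, where the median over all probes was 0.06 and -0.02. In LPS-G2 vs. LPS-G0 the markers of neutrophils, which express many of these genes, had positive changes too, 5 of 5 tested with a median of 0.65, 4 at an unadjusted p under 0.05 and 0 at an adjusted one. Of the monocyte markers 4 of 6 were positive there, with a median of 0.33. In LPS-G1 vs. LPS-G0, 4 of 5 neutrophil markers were positive (median 0.30, 0 at an unadjusted p under 0.05), as were 5 of 6 monocyte markers (median 0.22). Their part in the result was not tested. Both comparisons share the LPS-G0 arrays. In LPS-G2, the 4 smallest p included those of Tlr2, the receptor of bacterial lipoproteins that cooperates with dectin-1 (0.58), Il1b, a cytokine target (0.81), and Il1rn, the IL-1 receptor antagonist (0.54), each with an adjusted p of 0.597. In LPS-G1, the next after Vav3 were the calcium channel Itpr1 (0.63, adjusted p = 0.0723), the ubiquitin ligase Traf6 (0.67, adjusted p = 0.0928) and the cytokine Tnf (0.69, adjusted p = 0.123). The Traf6 probe was above background on 17 of 24 arrays.

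In C-G1 vs. C-G0 the median of 45 pathway genes was 0.32 (0.02 over all probes) and 0 passed. Among the 4 smallest p were those of the lipid phosphatase Inpp5d, a brake on this pathway (0.56, adjusted p = 0.122), the inflammasome adaptor Pycard (0.47, adjusted p = 0.130) and the scavenger receptor Cd36 (-0.87, adjusted p = 0.139). In C-G2 vs. C-G0 the median was 0.10 (0.02 over all probes) and 0 passed. The 4 smallest p were those of the Src family kinase Fgr (0.72, adjusted p = 0.174), the kinase Map3k7 (-0.75, adjusted p = 0.199), Fcer1g, an ITAM adaptor that recruits Syk (0.60, adjusted p = 0.199), and the integrin ligand Icam1 (0.66, adjusted p = 0.212). The arrays were fully separated for 5 of the 45 in C-G1 vs. C-G0, 4 higher and 1 lower (7.04% of all probes), and for 4 of the 45 in C-G2 vs. C-G0, all higher (2.62%).

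**Figure D4:**
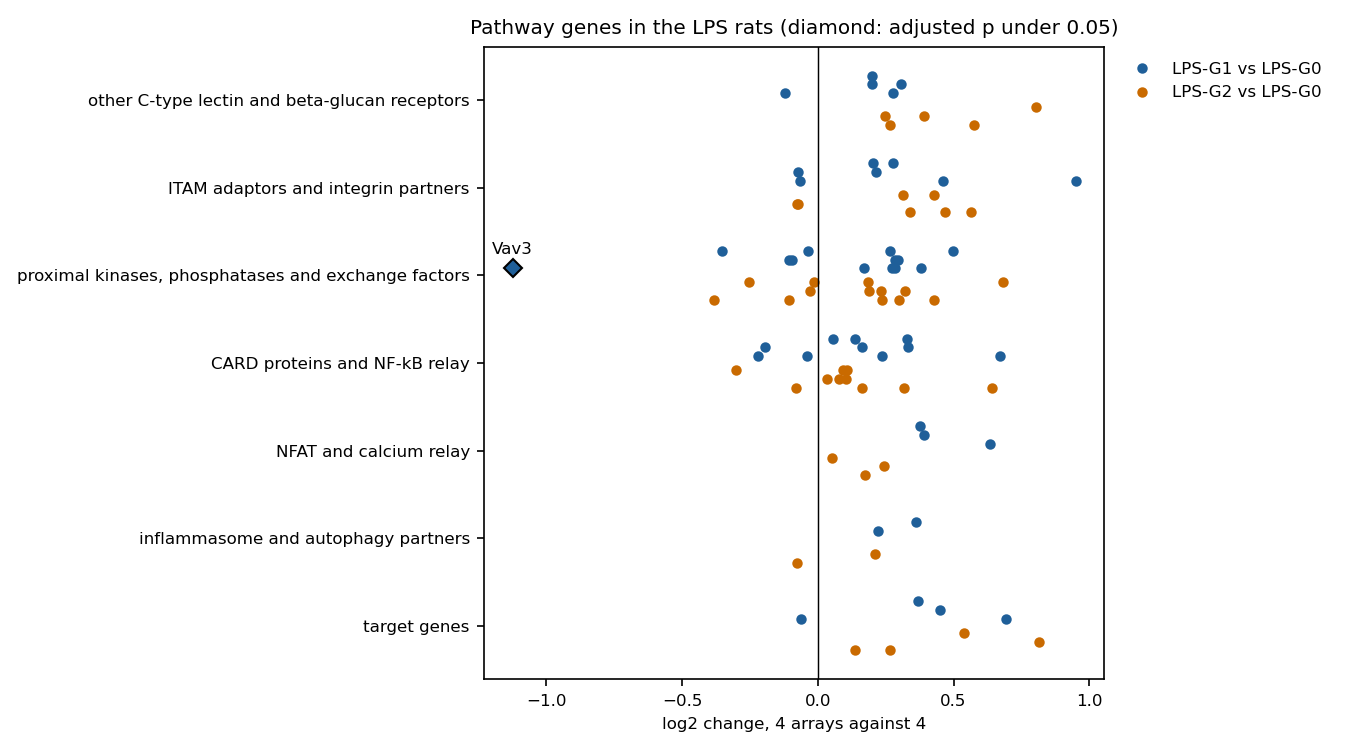
Log2 change of the 44 tested pathway genes, 1 point each, by role, in LPS-G1 vs. LPS-G0 (blue) and LPS-G2 vs. LPS-G0 (orange), with points set apart vertically for clarity and a diamond for an adjusted p under 0.05. Vav3 at -1.12 is the diamond, and 32 of 44 points in LPS-G1 and 34 of 44 in LPS-G2 lie above 0.

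In the other comparisons 0 pathway genes passed. LPS-G1 vs. LPS-G2 had its smallest p for Vav3 (-0.74), the deubiquitinase Cyld (-0.68), the adaptor Traf2 (0.36) and Fcer1g (-0.40), each with an adjusted p of 0.679. C-G1 vs. C-G2 had it for Itpr1 (0.58) and the integrin activator Fermt3 (-0.42), both with an adjusted p of 0.323, then Fcer1g (-0.33) and Icam1 (-0.36). LPS-G0 vs. C-G0 had it for Vav3, the integrin activator Tln1 (-0.38), the lectin receptor Clec4d (-0.89) and Map3k7 (-0.52), with adjusted p of 0.218 to 0.251. The Clec4d probe was above background on 17 of 24 arrays.

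In the average over LPS status, chosen after the values were seen, the G1 diet changed 9 of the 45 pathway genes (27.9% of all probes), 8 higher and 1 lower. Those with the smallest p included Vav3 (-0.61), Pycard (0.42), Itpr1 (0.53), Inpp5d (0.42), the integrin alpha chain Itgal, a partner of Itgb2 (0.85), Tlr2 (0.34) and the ITAM adaptor Tyrobp (0.47), with adjusted p from 0.0154 to 0.0458. The Itgal probe was above background on 15 of 24 arrays. Since Vav3 did not follow the G1 diet without LPS, its average describes neither the rats with LPS nor those without. In the G2 average 0 of the 45 passed.

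The genes whose ratios were most like those of each of the 8 over the 24 arrays, among 10676 probes, differed between them. For Clec7a they were Clec12a, a C-type lectin of the same gene cluster (Pearson's r = 0.75), Themis2 (0.72) and Mras (0.70). For Itgam they were Lrrc25 (0.86), Cpne5 (0.86) and Vom1r61 (0.85), and for Itgb2 they were Uqcrfs1 (0.89), Prkd3 (0.88) and Calm2 (0.87). For Plcg2 they were Sart1 (0.89), Gps1 (0.88) and Srp54a (0.88), and for Syk they were Mcm3, Ppp2r5a and Arap1, at 0.69 to 0.70. The nearest to Card9, Bcl10 and Malt1 were Srsf2 (0.75), Tgoln2 (0.91) and Ruvbl2 (0.83). Without C-G0 replicate 1 the values were 0.68 to 0.69 for the 3 genes like Plcg2 and 0.54 for Ruvbl2, and between 0.67 and 0.91 for the others named. The arrays share the reference pool and the groups, so these values are a description.

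Among the 8 genes the correlation of Plcg2 with Malt1 was 0.73 over the 24 arrays but 0.29 without C-G0 replicate 1, where neither was above background. That of Itgb2 with Bcl10 was 0.69, 0.74 after the group means were taken out and 0.77 without that array. The lowest were those of Itgam with Plcg2 (-0.63 and -0.53) and of Card9 with Bcl10 (-0.61 and -0.63). Card9 and Bcl10 encode proteins of the same complex.

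For Syk and Plcg2, the kinase and the phospholipase with higher values in the G1 average, the 250 bases before the transcript start are shown from RefSeq (assembly GRCr8, not the rn4 assembly of the probes). Of the 8 genes 7 had an entry. The letters searched on both strands were GGGA, any 4 bases and CC for NF-kB, TGANTCA for AP-1 and GAGGAAGT for the ETS family, and none of these holds another. They were counted in the whole entries of 300 bases, which reach past the start. The NF-kB letters were in 4 of the 7 (Bcl10, Card9, Plcg2 and Syk) and in 19.3% of 33469 promoters. The AP-1 and ETS letters were in 0 of the 7 and in 7.33% and 2.42% of all. A match of letters is no binding site by itself, and no match says only that the letters are not in this window. Capitals mark the NF-kB letters in the Plcg2 window on chromosome 19 (plus strand) and the Syk window on chromosome 17 (minus strand).
Plcg2: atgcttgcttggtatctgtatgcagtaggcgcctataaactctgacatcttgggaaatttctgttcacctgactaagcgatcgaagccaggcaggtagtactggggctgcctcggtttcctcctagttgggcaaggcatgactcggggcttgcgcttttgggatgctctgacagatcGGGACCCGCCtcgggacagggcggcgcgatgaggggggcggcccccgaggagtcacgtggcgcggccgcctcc
Syk: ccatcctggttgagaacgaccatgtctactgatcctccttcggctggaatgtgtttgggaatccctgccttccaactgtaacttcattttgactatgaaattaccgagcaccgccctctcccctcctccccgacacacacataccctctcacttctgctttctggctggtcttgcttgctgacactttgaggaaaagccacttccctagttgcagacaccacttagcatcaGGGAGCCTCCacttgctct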

How the data were processed

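RNA from blood of 24 rats was hybridized, 1 rat per array, against a common reference pool. The authors deposited Agilent Feature Extraction output per array: the intensity of each channel, background-subtracted and balanced between the dyes by Lowess, and log10 ratios of Cy5 over Cy3. The file headers give version 10.10.1.1, the submitters' notes 10.7.3.1. The deposited series matrix held the same log10 ratios (728683 of 728683 values compared agreed within 1e-08 in log2). The sign was turned to give Cy3 over Cy5, as the labels name the dyes, in log2. Control and outlier spots were left out and spots of a probe averaged.

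A probe was tested if every array of some group in the model had it well above background in Cy3, 10313 in the 16 arrays of C-G0 and the LPS groups and 10708 in all 24 arrays. The fits used limma 3.58.1 (R 4.3.3, data.table version 1.17.8), with p adjusted by Benjamini-Hochberg over all probes tested, with an adjusted p under 0.05 as the call. The 16-array model served the comparisons within it and the 24-array model the others and the differences between diet changes. Exact permutation tests over the 70 arrangements of 8 arrays were two-sided. The fit was tested on simulated data. A gene was read from its probe with the highest mean Cy3 signal. The 8 genes, the pathway list and the cell lists were chosen with earlier results of these data known. In each comparison the pathway genes named are those that passed (at most 8) or, where fewer than 4 passed, the 4 with the smallest p, except 1 gene that is not reported here; of the genes most like the 8, the rule took 3 for each. Gene names outside the array's symbols were read from RefSeq. The methods' one-way analysis of variance with Tukey's HSD, other normalizations, filters, blocks and omissions of single arrays were run as alternatives.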

Additional observations from a re-analysis of the deposited data

Results flagged for a closer look

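In 4 of the 66 sets of 4 arrays (11 probes in 6 groups) 1 array lay far from the other 3, with a gap to its nearest neighbour larger than chance gives in about 1 in 20 sets. Plcg2 was at -1.66 in C-G0 replicate 1, where the nearest array had -0.13, and was not above background there. Clec7a was at -1.05 in LPS-G0 replicate 1, with the nearest at -0.20, and was also not above background. Syk was at 0.44 in LPS-G1 replicate 2 by its brightest probe, with the nearest at 0.11. The Syk probe at the stop codon was at 0.91 in LPS-G2 replicate 3, with the nearest at 0.04. About 3 such sets would be flagged by chance among 66. The causes were not tested.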

How the results depend on the processing

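No value of the 8 genes at a p under 0.05, adjusted or not, changed sign. Values not at such a p changed sign in 103 of all 3071 cases in the 11 comparisons of groups and of diet changes and in 26 of 879 in the averages. In those 11, 3067 of 3071 values of single genes under an alternative stayed on the same side of the adjusted threshold and 4 passed it. These were Itgam in LPS-G1 vs. LPS-G0 with array weights (-0.55, adjusted p = 0.0299), Plcg2 there without C-G0 replicate 1, and Itgb2 in C-G1 and C-G2 vs. C-G0 without C-G0 replicate 4. The count of the 8 genes called in LPS-G1 vs. LPS-G0 was 1 with array weights in place of 0 (27.6% of all probes in place of 8.93%). For pathway genes called there it was 1, against 2 with normexp and loess, 6 with array weights, and 0 with Cy3 alone, no filter on dim probes, Tukey's HSD after the methods' analysis of variance, the mean of a gene's probes, or without LPS-G0 replicates 3 and 4, whose labels conflict. Of all probes tested there, 1161 of 10313 passed with normexp and loess, 1 with Tukey's HSD, 920 with the mean of a gene's probes, and 0 with Cy3 alone, no filter or without those arrays. In LPS-G0 vs. C-G0 array weights gave 2 pathway genes in place of 0 (11.1% of all probes in place of 0.0097%). The averaged G1 diet had 3 of the 8 genes and 9 pathway genes. With the slide as a block these were 1 and 5, with Cy3 alone, no filter or a 2-fold minimum 0 and 0, and without the arrays of conflicting labels 4 pathway genes passed. All probes passing there numbered 2987 of 10708, against 1631 with the slide as a block, 0 with Cy3 alone or no filter, 79 with the 2-fold minimum and 1412 without those arrays. The averaged G2 diet had 1 pathway gene with array weights in place of 0 (43 of all probes in place of 1). The averaged comparisons and the correlations without C-G0 replicate 1 were added after the data were seen, and Tukey's HSD gives the averages and the differences of diet changes no value. The causes were not tested.

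Leaving out 1 array at a time gave 0 to 1 of the 8 genes in LPS-G1 vs. LPS-G0 (1 without C-G0 replicate 1) and 0 to 1 in C-G1 and in C-G2 vs. C-G0 (1 without C-G0 replicate 4). Pathway genes numbered 0 to 4 in LPS-G1 vs. LPS-G0, 0 to 2 in LPS-G0 vs. C-G0 (2 without C-G0 replicate 1), and 0 to 2 in C-G1 and 0 to 3 in C-G2 vs. C-G0, the highest without C-G0 replicate 4. In the G1 average 1 to 3 of the 8 and 3 to 14 pathway genes passed, and in the G2 average 0 to 5 pathway genes did. The share of all probes passing moved with single arrays too, as given above for LPS-G1, C-G1 and C-G2 against the control diet. It is not given here for each omission, so these counts are no result about these genes.

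The main fits did not pair arrays by replicate number. Over the comparisons the mean correlation of same-numbered deviations was -0.05 to 0.33, with pairs as low as -0.26. Between other numbers the mean was -0.11 to 0.02. The same-numbered mean was lower only in LPS-G1 vs. LPS-G0 (-0.05 against 0.02) and LPS-G2 vs. LPS-G0 (-0.04 against 0.01). It was highest in C-G2 vs. C-G0 (0.33 against -0.11). From 1 to 6 of 8 arrays correlated best with their own number. All replicates 1 lay on slide 1 and all replicates 4 on slide 3, so number and slide are not independent. The replicate block left 0 of the 8 genes called in the 11 comparisons and 3 in the G1 average, and gave 1 pathway gene in C-G1 vs. C-G0 (600 of 10708 probes in place of 3) and 14 in the G1 average (3898 in place of 2987). Malt1, detected on 17 of 24 arrays, and the dim Itgam and Syk probes are limited by signal over background.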
